A study of Homo sapiens with 10 samples.

Results

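The MHC class I genes described here are the heavy chains HLA-B, HLA-C, HLA-E, HLA-F and HLA-G, their light chain B2M, and NLRC5, the transactivator of class I genes. They were taken by name, as every probe set annotated to 1 of these 7 genes alone, which gave 21 of the 41091 probe sets that carry 1 gene symbol and 7 of 19775 genes. RNA was measured on Affymetrix expression arrays in 5 lines of MDA-MB-231, an established human breast cancer line of triple-negative type, with 2 arrays per line and 10 arrays in all. The parental line was grown in culture and is labelled sensitive to SM-164, a Smac mimetic that antagonises IAP proteins. The other 4 lines are tumour cells isolated from xenografts in SCID mice that regressed under SM-164 (5 mg/kg intravenously, 5 days a week for 2 weeks) and later regrew. T2 and T3 are labelled resistant to SM-164, and T6 and T8 sensitive. Each line stands for 1 tumour. SCID mice lack mature T and B lymphocytes but keep innate cells such as NK cells and macrophages. All 4 regrown lines had passed through growth in a mouse, exposure to SM-164 and isolation from a tumour, and no regrown line without the drug is among the samples used here, so these steps cannot be told apart in any difference from the parental line.

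MHC class I molecules display peptides from inside the cell to cytotoxic T cells and are read by receptors of NK cells. HLA-B and HLA-C are classical chains that present varied peptides. HLA-E, HLA-F and HLA-G are nonclassical chains, of which HLA-E shows leader peptides of other class I chains to CD94/NKG2 receptors and HLA-G is best known from the placenta. B2M is the light chain that every one of these heavy chains binds. NLRC5 is a protein of the NLR family that interferon gamma induces and that acts at class I promoters together with the RFX, CREB and NF-Y factors on an X and Y box module. An interferon element and a kappa B element lie upstream of that module.

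The promoters are printed to show how alike the chain genes are and which letters of these elements the stretch before each start holds. RefSeq (GRCh38.p14) gave the 250 bases before the start for 5 of the 7 genes: HLA-B (chr6:31357180-31357429, minus strand), HLA-C (chr6:31272093-31272342, minus strand), HLA-F (chr6:29723184-29723433, plus strand), HLA-G (chr6:29827575-29827824, plus strand) and B2M (chr15:44711267-44711516, plus strand). HLA-E, also on chromosome 6, and NLRC5, on chromosome 16, are named only. The sequences run 5′ to 3′ on the strand of the gene, and capitals mark the motifs described after them.
HLA-B: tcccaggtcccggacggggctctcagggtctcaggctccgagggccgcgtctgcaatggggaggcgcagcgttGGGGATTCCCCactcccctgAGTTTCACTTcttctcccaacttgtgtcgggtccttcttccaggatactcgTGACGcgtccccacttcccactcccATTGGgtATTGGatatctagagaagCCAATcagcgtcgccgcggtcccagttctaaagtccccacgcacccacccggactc
HLA-C: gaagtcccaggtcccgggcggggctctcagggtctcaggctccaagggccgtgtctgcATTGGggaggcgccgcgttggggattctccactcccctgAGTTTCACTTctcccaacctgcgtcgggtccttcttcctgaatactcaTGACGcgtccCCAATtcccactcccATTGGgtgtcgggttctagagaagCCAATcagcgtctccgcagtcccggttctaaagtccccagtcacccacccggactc
HLA-F: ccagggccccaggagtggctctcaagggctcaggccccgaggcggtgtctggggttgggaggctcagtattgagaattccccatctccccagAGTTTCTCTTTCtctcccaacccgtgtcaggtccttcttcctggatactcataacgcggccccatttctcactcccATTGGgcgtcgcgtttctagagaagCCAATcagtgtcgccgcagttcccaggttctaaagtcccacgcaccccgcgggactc
HLA-G: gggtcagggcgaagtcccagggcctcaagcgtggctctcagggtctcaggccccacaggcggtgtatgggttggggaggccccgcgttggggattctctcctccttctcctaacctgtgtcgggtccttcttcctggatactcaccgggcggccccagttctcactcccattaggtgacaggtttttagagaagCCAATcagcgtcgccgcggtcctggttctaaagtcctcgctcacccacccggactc
B2M: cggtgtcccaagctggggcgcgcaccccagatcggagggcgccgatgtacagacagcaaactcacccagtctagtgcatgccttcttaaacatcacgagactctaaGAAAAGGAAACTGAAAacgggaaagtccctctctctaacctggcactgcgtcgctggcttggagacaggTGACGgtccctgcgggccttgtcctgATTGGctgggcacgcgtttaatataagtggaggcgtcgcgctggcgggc

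Against HLA-B, the aligned promoter was 90.8% identical in HLA-C, 83.6% in HLA-F, 79.6% in HLA-G and 60.4% in B2M. HLA-G has 3 starts in the RefSeq table, and the one whose promoter is closest to that of HLA-B is shown. Motifs were searched as letters on both strands, so that a match on the other strand appears in its complement. The Y box core CCAAT was found in all 5 promoters (3 matches in HLA-B, 4 in HLA-C, 2 in HLA-F and 1 each in HLA-G and B2M), against 32.0% of 35116 promoters of the same length. TGACG, the core of the X2 box, was found in HLA-B, HLA-C and B2M and in 21.2% of all promoters. The kappa B form searched (GGGGA, any base, TCCCC) was found in HLA-B alone of the 5 and in 0.0655% of all promoters. The interferon element (GAAA, any 2 bases, GAAA) was found in HLA-F and, as a pair of overlapping matches, in B2M, against 3.02% of all promoters. Another form (AA, any 2 bases, GAAACT), added after the letters had been read, was found in HLA-B, HLA-C, HLA-F and B2M, against 1.33% of all promoters, and overlaps the first form in HLA-F and B2M. A second kappa B form, GGGANTTCC, and the X1 box core CTAGCAA, in 1.59% and 1.84% of all promoters, had no match in the 5. A match describes the letters only.

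All 7 genes were lower in the regrown tumours than in the parental cells. Calls rest on limma with p-values adjusted by Benjamini-Hochberg over 14929 genes (under 0.05), and 16.8% of those genes were called lower. Each of the 7 was also called lower in T2, T3, T6 and T8 taken singly, as were 5.41% of all genes. Of these, B2M was not called in T6 with the mean over probe sets (-0.21, adjusted p = 0.0567), nor, with array medians centred, in T8 (-0.20, adjusted p = 0.0679), and HLA-E was not called in T8 with medians centred (-0.18, adjusted p = 0.0950). HLA-B and NLRC5 fell most, by log2 1 or more, as did 0.877% of all genes. The order ran from NLRC5 and HLA-B, at 45.0% and 47.8% of the parental level, through HLA-F (53.1%), HLA-C (55.1%), HLA-G (61.9%) and HLA-E (71.8%) to B2M (80.0%). The median difference of the 7 was -0.86 on the log2 scale, and that of all genes was 0.00. On every gene's strongest probe set, the 8 tumour arrays all lay below both parental arrays, which held for 12.4% of all genes. In RNA from a mass of cells, fewer expressing cells and less RNA per cell cannot be told apart. Whether the 2 arrays of a line are separate cultures is not stated, so such p-values reflect array spread, which may be technical.

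**Figure D1:**
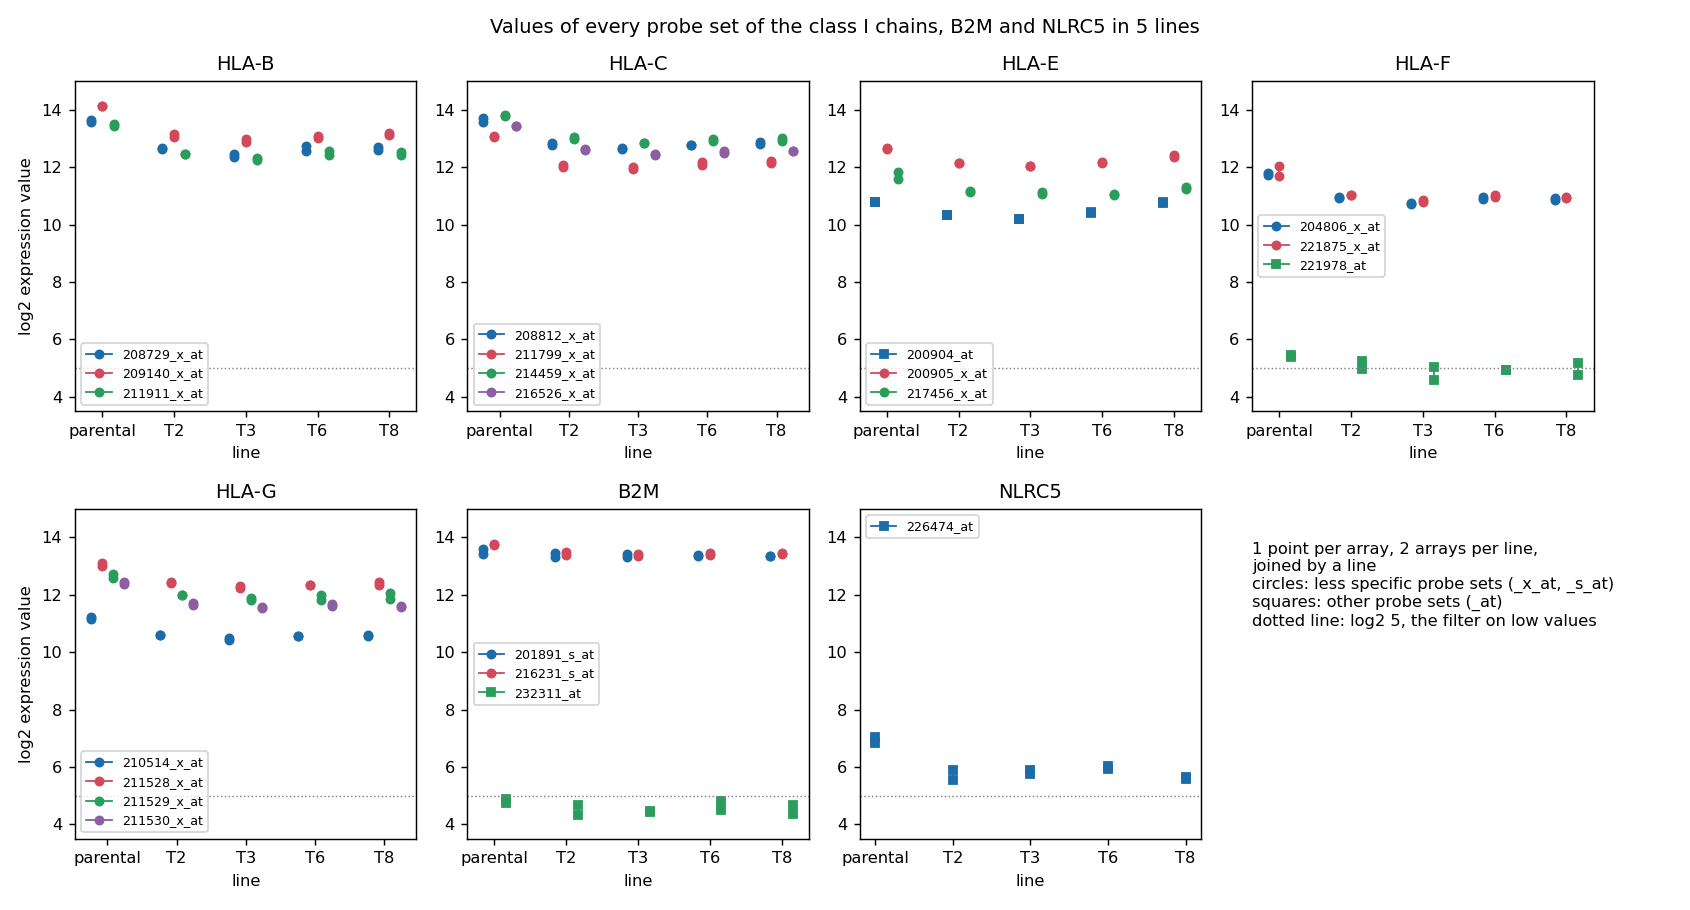
Each panel plots log2 expression against line for the probe sets of 1 gene, with 1 point per array and 2 arrays per line; circles are less specific probe sets, squares the others, and the dotted line is log2 5, the filter on low values. Parental points stand above the tumour points for the chains and NLRC5, while the B2M points lie close together and 232311_at of B2M stays under the dotted line.

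The 17 probe sets of the chains are not 17 separate measurements. The names of 15 of them end in _x_at, the platform's mark for probes that may bind transcripts of several genes, and the class I chains are alike in sequence. A value of such a probe set can therefore hold signal of another chain, and the split between the chains is uncertain. The 2 others are 200904_at of HLA-E and 221978_at of HLA-F. Of the 21 probe sets of the 7 genes, 20 reached log2 5 on at least 2 arrays and were tested. All 20 were lower in the tumours by limma's adjusted p over 33341 probe sets, of which 14.4% were called lower. In 19 of the 20 every tumour array lay below both parental arrays, against 11.6% of all probe sets tested. The highest value on any array was log2 14.7 to 14.8, so the strongest class I probe sets stood near the top of the scale.

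HLA-B, a classical chain, had log2 values of 14.13 and 14.13 on the parental arrays by its strongest probe set, 209140_x_at. The tumour arrays read 13.15 and 13.06 in T2, 12.88 and 12.99 in T3, 13.03 and 13.09 in T6, and 13.13 and 13.20 in T8. The groups did not overlap, and the gap between parental and tumour arrays was many times that between the arrays of a line. The tumours were lower by -1.06 ± 0.04 (log2, SE; limma adjusted p = 1.14e-10). Its other probe sets, 208729_x_at and 211911_x_at, differed by -1.03 each, and the 3 left between 47.8% and 49.1% of the parental level.

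HLA-C, the other classical chain and a main ligand of NK cell receptors of the KIR family, read 13.78 and 13.81 in parental cells on 214459_x_at. Its tumour values were 13.04 and 12.97 in T2, 12.83 and 12.85 in T3, 12.91 and 12.97 in T6, and 12.90 and 13.01 in T8. All tumour arrays were low and within a narrow band. The difference was -0.86 ± 0.04 (SE; adjusted p = 8.70e-10), and over the 4 HLA-C probe sets it ran from -0.99 to -0.86.

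HLA-F, a nonclassical chain, read 12.03 and 11.69 in parental cells on 221875_x_at, the widest gap between arrays of a line among the chain probe sets above log2 6 (0.34). The tumour arrays read 11.03 and 11.03 in T2, 10.79 and 10.84 in T3, 10.96 and 11.01 in T6, and 10.93 and 10.97 in T8. Tumour and parental arrays did not overlap, and the difference was -0.91 ± 0.07 (SE; adjusted p = 5.89e-08). Its probe set 221978_at lay near the filter, at 5.40 and 5.45 in parental cells and between 4.57 and 5.25 on the tumour arrays. There the difference was -0.48 ± 0.14 (adjusted p = 0.0127), and it was not called without parental replicate 2 (adjusted p = 0.0937).

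HLA-G read 13.11 and 12.99 in parental cells on 211528_x_at, a less specific probe set, so that the signal need not be that of HLA-G. Its tumour values were 12.44 and 12.41 in T2, 12.25 and 12.31 in T3, 12.34 and 12.35 in T6, and 12.33 and 12.43 in T8. The tumours lay together below the parental arrays, by -0.69 ± 0.05 (SE; adjusted p = 2.04e-08). All 4 HLA-G probe sets were lower, by between -0.80 and -0.65, and each of them is of the less specific kind.

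HLA-E was the chain gene with the smallest difference. On 200905_x_at the parental arrays read 12.63 and 12.68, and the tumours 12.14 and 12.15 in T2, 12.03 and 12.05 in T3, 12.13 and 12.16 in T6, and 12.34 and 12.42 in T8. The difference was -0.48 ± 0.04 (SE; adjusted p = 4.09e-07), with T8 the nearest of the tumours to the parental cells. The probe set without the less specific mark, 200904_at, read 10.79 and 10.80 in parental cells, 10.32 and 10.34 in T2, 10.18 and 10.19 in T3, 10.45 and 10.41 in T6, and 10.78 and 10.74 in T8. T2, T3 and T6 stood apart from the parental arrays there, while T8 lay beside them. The mean difference of that probe set was -0.37 ± 0.05 (adjusted p = 3.07e-05), and T8 alone differed by -0.04 ± 0.06 (adjusted p = 0.670; 95% interval -0.17 to 0.10). After a repeated quantile normalisation the same T8 difference was -0.20 and was called (adjusted p = 0.0129). The third probe set, 217456_x_at, read 11.57 and 11.84 in parental cells and differed by -0.56 ± 0.06 (limma adjusted p = 3.19e-06). T8 was lower there too, by -0.44 ± 0.08 (adjusted p = 0.000396).

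**Figure D2:**
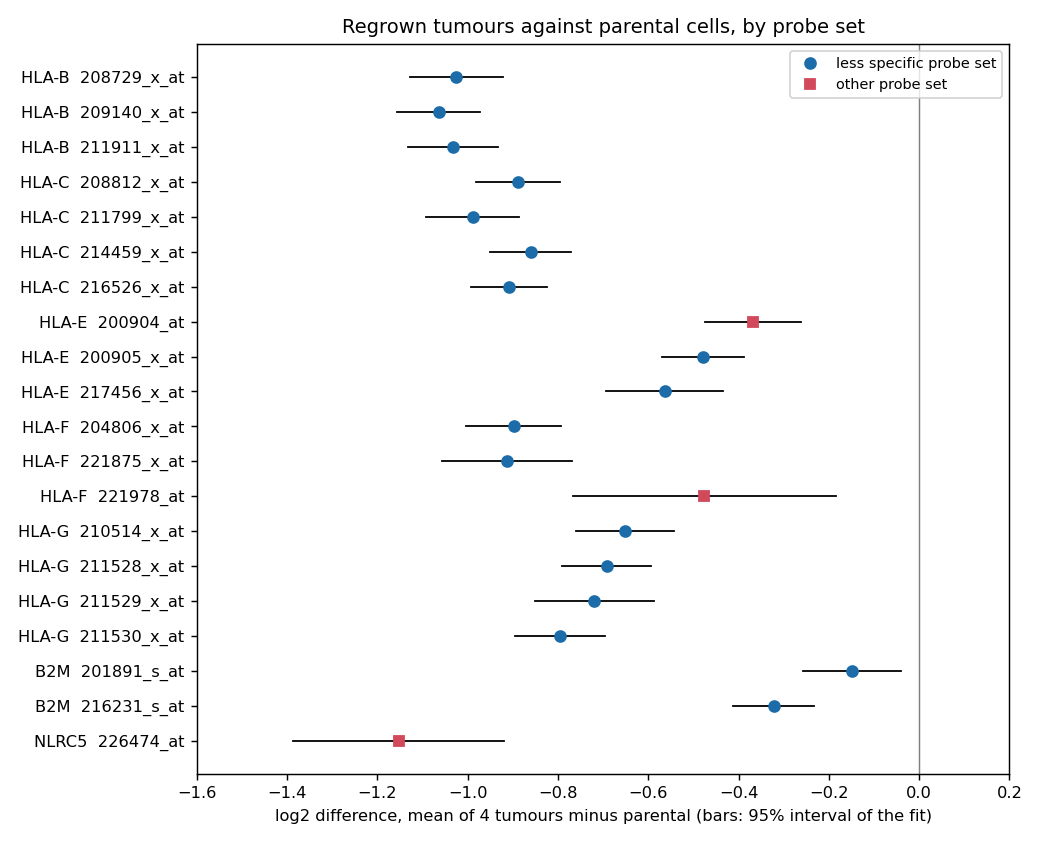
The log2 difference between the mean of the 4 tumours and the parental cells (horizontal axis) is plotted for each of the 20 tested probe sets, with bars for the 95% interval of the limma fit; blue circles are less specific probe sets (names ending in _x_at or _s_at) and red squares the others. Every interval lies below 0, from B2M 201891_s_at at -0.15 to NLRC5 at -1.15.

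B2M, the light chain, had the smallest difference of the 7 genes. By 216231_s_at the parental arrays read 13.74 and 13.76, and the tumours 13.37 and 13.48 in T2, 13.36 and 13.44 in T3, 13.39 and 13.47 in T6, and 13.43 and 13.47 in T8. All tumour arrays were below the parental ones, by -0.32 ± 0.04 (SE; limma adjusted p = 2.71e-05). On 201891_s_at the groups overlapped: the parental arrays read 13.61 and 13.44, and the tumour arrays ran from 13.31 to 13.47. That difference was -0.15 ± 0.05 (adjusted p = 0.0320) and was not called without parental replicate 1 (-0.06, adjusted p = 0.461). It was also lost without T3 replicate 1, T6 replicate 2 or either T8 array (adjusted p from 0.0504 to 0.0577), with array medians centred (-0.09, adjusted p = 0.423) and without the trend in eBayes (adjusted p = 0.147). The third probe set, 232311_at, stayed between 4.31 and 4.88 and was not tested.

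NLRC5 had 1 probe set, 226474_at, without the less specific mark. The parental arrays read 6.84 and 7.04, and the tumours 5.91 and 5.55 in T2, 5.75 and 5.89 in T3, 5.94 and 6.03 in T6, and 5.57 and 5.66 in T8. The parental arrays were high and the tumours did not reach them. The difference was -1.15 ± 0.11 (SE; limma adjusted p = 8.58e-07), with a 95% interval of -1.39 to -0.92. The signal is low on the array's scale, where array medians were 5.43 to 5.57.

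Set side by side, the 4 tumours each showed a fall of similar size; these comparisons share the 2 parental arrays. HLA-B differed from parental cells by -1.03 in T2, -1.20 in T3, -1.07 in T6 and -0.96 in T8. HLA-C differed by -0.79, -0.96, -0.86 and -0.84 in the same order. NLRC5 differed by -1.21, -1.12, -0.96 and -1.33, and B2M by -0.32, -0.35, -0.32 and -0.30. HLA-F differed by -0.82, -1.05, -0.87 and -0.91, and HLA-G by -0.62, -0.77, -0.71 and -0.67. HLA-E was the gene in which a tumour departed from the others, at -0.51, -0.61, -0.51 and -0.28. The largest adjusted p among these comparisons was 0.000771 (limma), for HLA-E in T8. Of all genes, 15.5%, 15.8%, 13.7% and 15.1% were called lower in T2, T3, T6 and T8. Of the 20 probe sets, 18, 19, 19 and 18 were called lower, against 12.9%, 13.4%, 11% and 13.2% of all probe sets. Those missed were 201891_s_at of B2M in all 4 tumours, 221978_at of HLA-F in T2 and 200904_at of HLA-E in T8. With quantile normalisation repeated, 201891_s_at was called lower in T2 (-0.13, limma adjusted p = 0.0438), T3 (-0.23, adjusted p = 0.00132) and T8 (-0.23, adjusted p = 0.00147). Without parental replicate 2 its differences were -0.24 in T3, -0.25 in T6 and -0.25 in T8. The calls of 221978_at in T3, T6 and T8 were each lost without parental replicate 2 (adjusted p from 0.0505 to 0.156). In T3 the call was also lost without T3 replicate 2 (-0.39, adjusted p = 0.178); in T6 without parental replicate 1 or either T6 array (adjusted p from 0.0711 to 0.146); and in T8 without parental replicate 1, either T6 array or T8 replicate 1 (adjusted p from 0.0669 to 0.390). Without the trend it was lost in T6 (adjusted p = 0.0516) and T8 (0.0596), and in T8 also with quantile normalisation repeated (-0.36, adjusted p = 0.0836), with medians centred (0.0802) and with no filter (0.0574).

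**Figure D3:**
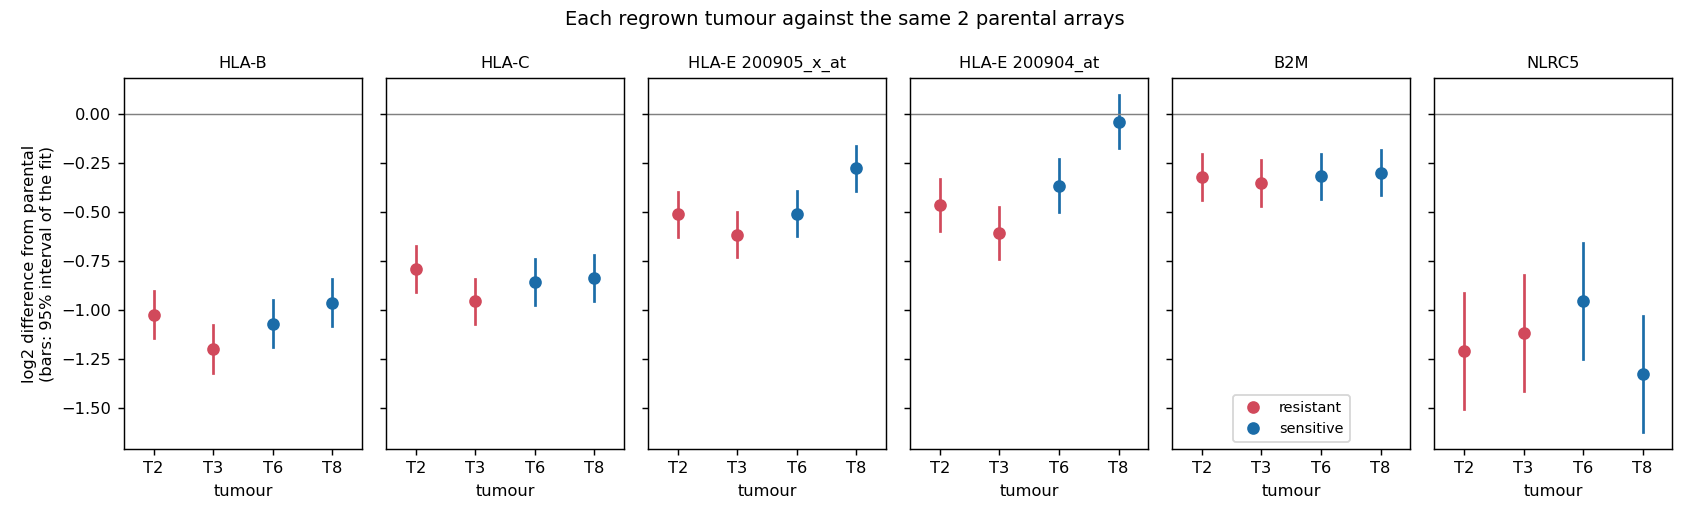
The log2 difference of each tumour from the same 2 parental arrays (vertical axis) is plotted by tumour, red for resistant and blue for sensitive, with bars for the 95% interval of the fit. HLA-B, HLA-C, B2M and NLRC5 lie below 0 in all 4 tumours, while T8 stands at -0.28 on HLA-E 200905_x_at and at -0.04 on 200904_at.

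Among the tumours, T3 was the lowest on 15 of the 16 chain probe sets whose parental mean was at least log2 6, and T6 on the other. T2 was the highest on 9 of them, T8 on 6 and T6 on 1. The spans were small: the median range over the 4 tumour means was 0.20, and the median gap between the arrays of a line was 0.05. Since many of these probe sets may bind the same transcripts, the count of 15 is a description. Neighbours in the order mostly did not differ beyond the spread between arrays. Of the 7 genes, 2 were called between T2 and T3 (30.8% of all genes): HLA-B was higher in T2 by 0.18 ± 0.06 (limma adjusted p = 0.0277) and HLA-C by 0.17 ± 0.05 (adjusted p = 0.0307). HLA-B was lower in T3 than in T8 by -0.24 ± 0.06 (adjusted p = 0.00918; 18.4% of all genes called). Without T3 replicate 1 these 3 differences were 0.12, 0.16 and -0.18 and none was called (adjusted p = 0.215, 0.109 and 0.113). Both T2 against T3 calls were also lost without T2 replicate 1 (0.13 each, adjusted p = 0.176 and 0.164), that of HLA-C without T3 replicate 2 (adjusted p = 0.0927), and the HLA-B call against T8 without T8 replicate 2 (-0.20, adjusted p = 0.101). HLA-F was called between T2 and T3 (0.22) when either parental array was left out (adjusted p = 0.0113 and 0.0112), although those arrays are not in the difference. By its strongest probe set, no gene of the 7 was called between T2 and T6 (9.46% of all genes) or T3 and T6 (25%). Of the 20 tested probe sets, 4 were called lower in T3 than in T6, where 25% of all genes were called in either direction. In HLA-B these were 208729_x_at (-0.24, limma adjusted p = 0.0100) and 211911_x_at (-0.21, adjusted p = 0.0213). In HLA-F it was 204806_x_at (-0.18, adjusted p = 0.0493), and the other was of HLA-E. Of the 20, 6 were called higher in T2 than in T3, and 6 lower in T3 than in T8. Of all genes, 30.8% and 18.4% were called in these pairs, in either direction. Shares of all probe sets are not given for pairs of tumours, so these counts of probe sets are a description. None was called the other way.

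By its strongest probe set and by 200904_at, HLA-E separated T8 from the other tumours. It was lower than in T8 by -0.24 ± 0.05 in T2 (limma adjusted p = 0.00367; 31.8% of all genes called), by -0.34 ± 0.05 in T3 (adjusted p = 0.000584) and by -0.23 ± 0.05 in T6 (adjusted p = 0.00864; 15.1% of all genes called). On 200904_at these differences were -0.43 ± 0.06, -0.57 ± 0.06 and -0.33 ± 0.06 (adjusted p = 0.000134, 2.59e-05 and 0.00333). That probe set also read lower in T3 than in T6, by -0.24 ± 0.06 (adjusted p = 0.0123). Without T8 replicate 2, HLA-E was not called between T2 and T8 (-0.20, adjusted p = 0.0595) or T6 and T8 (-0.19, adjusted p = 0.124), and the latter was also lost without T6 replicate 1 or 2 (adjusted p = 0.0951 and 0.0508). On 200904_at, T6 against T8 was lost without T6 replicate 2 or T8 replicate 1 (adjusted p = 0.0552 and 0.0559), and T3 against T6 without T3 replicate 1 or T6 replicate 1 or 2 (adjusted p = 0.0558, 0.117 and 0.0625). B2M and NLRC5 were called in none of the 6 pairs; the widest NLRC5 difference, T6 over T8, was 0.37 ± 0.14 (adjusted p = 0.0884).

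The question the labels set is whether resistant and sensitive tumours differ. With the tumour as the replicate, 2 against 2, limma called 0 of the 7 genes and 0 of 14929 genes, with 661 genes at an unadjusted p under 0.05. The difference was -0.17 ± 0.12 (SE) for HLA-E and -0.10 ± 0.10 for HLA-B, and between -0.05 and -0.01 for the other 5, with adjusted p from 0.894 to 0.993. Over arrays, which describes these 4 tumours alone, HLA-E was lower in T2 and T3 than in T6 and T8 by -0.17 ± 0.04 (adjusted p = 0.00679), and 14.2% of all genes were called lower. On 200904_at that difference was -0.33 ± 0.04 (adjusted p = 0.000200) and on 211799_x_at of HLA-C -0.14 ± 0.04 (adjusted p = 0.0356), so that 3 of 20 probe sets were called lower, against 12.2% of all. The HLA-E arrays ran from 12.03 to 12.15 in the resistant tumours and from 12.13 to 12.42 in the sensitive ones on 200905_x_at, and overlapped. T6 lay close to T2, and T8 was the high line. On 200904_at the resistant arrays ran from 10.18 to 10.34 and the sensitive ones from 10.41 to 10.78, without overlap. How many of all probe sets split in this way was not counted. On 217456_x_at of HLA-E the arrays overlapped, at 11.05 to 11.18 and 11.04 to 11.29. The difference there was -0.04 ± 0.05 over arrays (limma adjusted p = 0.630).

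The genes that supply peptides to class I molecules were lower in part. All 4 tested genes of the immunoproteasome and its activator were called lower in the tumours (median -0.79), as were 16.8% of all genes. PSMB9 and PSMB8, catalytic subunits induced by interferon gamma, differed by -1.40 ± 0.06 and -0.57 ± 0.05 (limma adjusted p = 1.41e-10 and 5.25e-07). PSMB10, the third such subunit, differed by -1.01 ± 0.07 and PSME1, a subunit of the PA28 activator, by -0.39 ± 0.05. Of 9 genes of peptide transport, loading and trimming, 5 were lower and none higher (median -0.36). TAPBP, or tapasin, which bridges class I molecules and the TAP transporter, differed by -0.81 ± 0.05, and TAP1, a TAP subunit, by -0.40 ± 0.05 (adjusted p = 2.88e-05). ERAP1 and ERAP2, the trimming peptidases of the endoplasmic reticulum, each differed by -0.50. TAPBPL, a tapasin relative, differed by -0.36 ± 0.10. The general chaperones CALR (-0.03), CANX (-0.04) and PDIA3 (0.07) and the TAP subunit TAP2 (-0.02) were not called. Over arrays, 14.2% of all genes were called lower in T2 and T3 than in T6 and T8. So were 2 of the 4 immunoproteasome and activator genes and 2 of the 9 others. These were PSMB8 and PSMB9, by -0.44 each (limma adjusted p = 2.73e-05 and 8.87e-05), TAPBP, by -0.29, and TAP1, by -0.28. With the tumour as replicate, none of them was called (adjusted p = 0.894 each).

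The DNA-binding partners of NLRC5 did not move one way. Of 7 tested X and Y box factors, 2 were lower and 3 higher (median 0.22). Of all genes, 16.8% were called lower and 25.5% higher. NFYA, a subunit of NF-Y, was lower by -0.49 ± 0.06, while the subunits NFYB and NFYC were higher by 0.68 ± 0.07 and 0.22 ± 0.06. RFX5, the large subunit of the RFX complex, was lower by -0.25 ± 0.05 (limma adjusted p = 0.00182), and CREB1 was higher by 0.22 ± 0.08. Of 11 genes of interferon and NF-kB input, 2 were lower and 3 higher (median -0.02). IRF1, a transcription factor that binds interferon elements, was lower by -0.73 ± 0.08 (adjusted p = 2.42e-06), and the interferon gamma receptor chain IFNGR2 by -0.55 ± 0.05. The chain IFNGR1 was higher by 0.37 ± 0.07, IRF9 by 0.29 ± 0.06 and NFKB1 by 0.33. ATF1 and STAT2 were not analysed here. Of the 3 core subunits of PRC2, a complex that silences genes by histone H3 methylation, SUZ12 and EED were higher by 0.28 and 0.23, and EZH2 (-0.17 ± 0.08, adjusted p = 0.0821) was not called.

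Relatives of NLRC5 and of the chains were lower in part. CIITA, the transactivator of MHC class II genes, differed by -0.18 ± 0.13 and was not called (limma adjusted p = 0.285). NLRX1 was lower by -0.51 ± 0.08 and NOD1 by -0.21 ± 0.08; these were 2 of the 3 NLR relatives tested, with NOD2, NLRC3 and NLRC4 below the filter. Of 6 tested class I-like chains that pair with B2M, 2 were lower: MR1, which presents vitamin B metabolites, by -0.66 ± 0.11 and HFE, a regulator of iron uptake, by -0.45 ± 0.09. Among 4 tested ligands of NKG2D, an activating receptor of NK cells, MICB was lower by -0.19 and MICA and ULBP2 were higher by 0.19 and 0.28. Beside the counts of these lists, 16.8% of all genes were called lower and 25.5% higher.

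**Figure D4:**
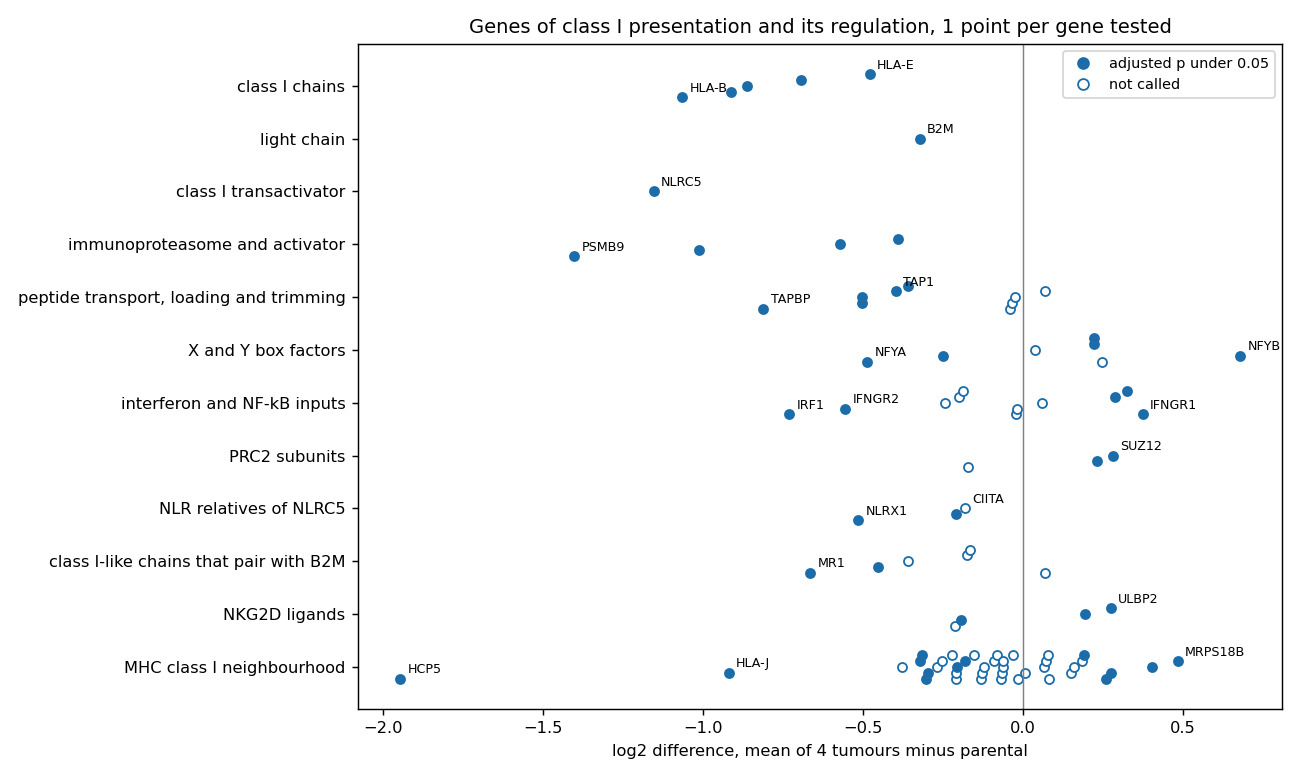
Each point is 1 tested gene, placed by its log2 difference between the mean of the 4 tumours and the parental cells (horizontal axis) and by gene list (rows); filled points have an adjusted p under 0.05. The chains, B2M, NLRC5 and the immunoproteasome genes all lie below 0, while the other lists spread over both sides or lie partly unfilled.

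The genes that lie between HLA-F and MICB on chromosome 6 were counted as the chains' neighbourhood. Of 39 tested, 8 were lower and 5 higher (median -0.08), where 16.8% of all genes were called lower and 25.5% higher, so the share called lower was near that of all genes. The 5 chain genes were all lower (median -0.86). HCP5, a noncoding RNA gene of the class I region, had the largest difference: its mean was 7.05 in parental cells and between 5.07 and 5.16 in the tumours, a difference of -1.95 ± 0.11 (limma adjusted p = 3.07e-09). HLA-J, a class I pseudogene whose signal may hold that of other chains, differed by -0.92 ± 0.06. NRM and TRIM26 were lower by -0.32 and -0.31. MRPS18B, GNL1, ATAT1 and POLR1H were higher, by 0.48, 0.41, 0.28 and 0.26.

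The genes whose line means were most like those of each gene are given as a description over 5 lines, by the root mean square (RMS) difference after centring, with the 7 genes themselves left out of the ranking. HLA-B was nearest to SLC20A1 (RMS 0.03), the immunoproteasome gene PSMB10 (0.05) and CALHM2 (0.06), and 12 tested genes lay within 0.1 of it. NLRC5 was nearest to KLHL4 (0.08), DAAM1 (0.09) and EPHX1 (0.09), with 4 genes within 0.1. HLA-C was nearest to CMKLR2, GSTK1 and CST1, and HLA-F to HLA-J, TOGARAM2 and GSTK1, with 45 and 35 genes within 0.1. HLA-C and HLA-F were as near to each other (RMS 0.033) as HLA-C was to CMKLR2 (0.033), and HLA-F was nearer to HLA-C than to HLA-J (0.044). HLA-E was nearest to TNNT1, SLC7A5 and SLC37A3, but 204 genes lay within 0.1 of it. HLA-G was nearest to NUP205, RTL6 and CTNNBIP1, with 125 genes within 0.1. The line means of B2M spanned 0.35, too little to single out a gene, with 1595 genes within 0.1.

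Over VIM, CD44, AXL, CAV1 and FN1, markers of a mesenchymal breast cancer line, the mean level was 12.5 to 12.7 on every array, and over 5 epithelial and hormone receptor genes it was 4.68 to 5.04. Of the mesenchymal markers, CAV1 and AXL were called lower in the tumours (-0.30 and -0.19) and VIM higher (0.19). Blood and stromal cells express class I genes, so their markers are given beside the fall. Such cells in these xenografts came from the mouse, and probe sets for human genes may not read them. Among the called markers below, LAPTM5 and ROBO4 read 10.66 and 9.21 in the parental line, which was grown in culture. The others called read between 3.59 (CDH5) and 6.18 (DCN) there. What a change in these markers reflects was not tested. Of 8 macrophage markers, CSF1R, LAPTM5 and ITGAM were called lower and none higher; the mean over the list was 5.76 to 5.87 on parental and 5.51 to 5.73 on tumour arrays, and PTPRC, CD163 and TYROBP stayed under log2 5 on every array. Of 7 lymphocyte and NK markers, CD3D was higher; MS4A1 and NKG7 stayed under log2 5, and the list mean was 5.61 to 5.78 on parental and 5.60 to 5.93 on tumour arrays. Of 6 endothelial markers, CDH5, TIE1 and ROBO4 were higher, with a list mean of 5.82 to 5.83 on parental arrays and up to 6.39 in T8. Of 5 fibroblast and pericyte markers, DCN was lower and LUM stayed under log2 5 on every array, with a list mean of 5.78 on parental and 5.70 to 5.87 on tumour arrays. Beside these marker calls, 16.8% of all genes were called lower and 25.5% higher. The part of other cells in the class I values was not tested.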

How the data were processed

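RNA of 5 lines, 2 arrays each, was analysed from the authors' deposited table of log2 expression values, for which affy, RMA and limma are named per the submitters' processing notes, with no versions. RMA corrects background, quantile-normalises over arrays and summarises each probe set. No array has a read depth, so their number limits precision. Of 54675 probe sets, 62 controls were left out, 1801 had several symbols and 11721 none; symbols come from the platform annotation, 41037 of them updated against RefSeq GRCh38.p14. The probe set with the highest mean stood for a gene, and features with log2 5 on at least 2 arrays were tested (14929 genes, 33341 probe sets).

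Two-sided tests used lmFit and eBayes with trend (limma 3.58.1, R 4.3.3): 1 coefficient per line over 10 arrays, and for response also the mean of each line, with the tumour as replicate. The scripts were tested on simulated data. Every probe set of the 7 genes is given; of each gene list, up to 4 called genes per direction with the largest changes, and always TAP1, PSMB9, IRF1, RFX5 and CIITA (another gene of this rule is not reported here); and for each of the 7 whose line means span log2 0.5, the 3 most alike genes. Uncalled list genes and marker genes named beside these were chosen after their values were seen. The 7 genes and the lists were chosen with earlier results of these data known.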

Additional observations from a re-analysis of the deposited data

Results flagged for a closer look

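The 4 tumour means of HLA-B probe set 208729_x_at had T3 apart from the others: its gap to the nearest, divided by the whole range, was 0.934. That ratio is past Dixon's 95% critical value for 4 values, which chance exceeds in about 1 of 20 groups. All 21 probe sets of the 7 genes were checked in this way, and no other passed that value. T3 read 12.37 and 12.45 there, and the other tumours 12.58 to 12.72.

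Differences between tumours are listed here for genes and, of single probe sets, for 200904_at of HLA-E alone. For T2 minus T3, those that passed limma's adjusted p were 0.18 in HLA-B and 0.17 in HLA-C. Each was higher on both T2 arrays than on both T3 arrays. For T3 minus T8 the differences that passed were -0.24 in HLA-B and -0.34 in HLA-E. HLA-E also differed by -0.24 in T2 minus T8 and by -0.23 in T6 minus T8, and by -0.17 for resistant minus sensitive over arrays. On HLA-E probe set 200904_at the differences were -0.43 in T2 minus T8, -0.24 in T3 minus T6, -0.57 in T3 minus T8, -0.33 in T6 minus T8 and -0.33 for resistant minus sensitive over arrays. With the tumour as replicate, the last was not called (adjusted p = 0.845).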

How the results depend on the processing

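All 7 genes were called lower than in parental cells, over the 4 tumours and in T2 and T3, under every setting that kept less specific probe sets; in T6 and T8, B2M missed with the mean over probe sets (T6, -0.21, adjusted p = 0.0567) and with array medians centred (T8, -0.20, adjusted p = 0.0679), and HLA-E missed in T8 with medians centred (-0.18, adjusted p = 0.0950). Without less specific probe sets 3 genes could be tested; 3 were lower over the tumours, 2 in T2, 3 in T3, 3 in T6 and 2 in T8. Genes called between T2 and T3 numbered 5 with quantile normalisation repeated, 0 with medians centred, 0 without less specific probe sets and 0 without the trend. Between T3 and T6 they numbered 4 with quantile normalisation, 1 with the mean over probe sets and 1 without less specific probe sets. Quantile normalisation gave 2 between T2 and T8. Between T3 and T8 they were 1 without less specific probe sets and 1 without the trend, and between T6 and T8 0 with medians centred and 0 without the trend. Leaving out each array gave 0 to 3 for T2 and T3, 0 to 1 for T2 and T8 and for T6 and T8, and 1 to 2 for T3 and T8. The cause was not tested. Over all genes, the tumours had 2513 lower and 3801 higher calls, 3502 and 3267 with quantile normalisation and 1599 and 4084 with medians centred; without parental replicate 2 the total of 6314 became 4099. With the tumour as replicate, a random block of line called 4 genes, and leaving out T2 called 23, none of the 7. Correlations between lines of replicate 1 minus replicate 2 ran from -0.36 to 0.47. They were positive between T2 and T3 and among parental, T6 and T8, and negative across these sets. A block on replicate number cannot take up a shared factor whose order is flipped in T2 and T3, and such a factor was not tested. With the replicate block all 7 genes stayed lower. The call of 221978_at of HLA-F was lost there in T6 (limma adjusted p = 0.0637) and T8 (0.0750). Other settings that changed calls of it and of 201891_s_at of B2M are given above. Of the values of single genes and probe sets, 2216 kept their side of the threshold, 57 lost and 27 gained a call, and none reversed. Signals near log2 5 limit NLRC5 and 221978_at.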
